A study of Mus musculus with 2 samples.

Results

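Genes of 7 amino acid transporter families were followed in mouse embryonic stem (ES) cells in which topoisomerase II was inhibited. Every row of the deposited table whose symbol starts with Slc1a, Slc3a, Slc6a, Slc7a, Slc36a, Slc38a or Slc43a and a number was taken, which gave 62 of 21937 genes. Among them 60 had reads, and 47 had a base mean, the average of both groups in normalised reads, of at least 10, of which 46 are described singly. The lowest base mean inside that limit was 15.5 (Slc7a14) and the highest outside it 9.74 (Slc3a1). By symbol the rows also take in Slc7a6os, which is named for its place beside Slc7a6 and is not a transporter of the family. Messenger RNA was sequenced from ICRF-193-treated cells (500 nM, 16 h) and from cells given the solvent DMSO for the same time. Both groups were wild-type ES cells of the strain 129Sv-C57Bl/6 grown without feeder cells, and ICRF-193 is known to lock topoisomerase II as a closed clamp on DNA. Each group is labelled as 3 replicates, and the labels do not say whether these were separate cultures, so the spread behind each p-value is that of these samples and may be technical.

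Amino acid transporters bring the building blocks of protein across the plasma membrane or out of organelles. The Slc1 family holds sodium-driven carriers of glutamate and of small neutral amino acids. Slc7 holds carriers of cationic amino acids, which work alone, and light chains that reach the membrane only when bound to a heavy chain of the Slc3 family. Slc6 holds sodium- and chloride-driven carriers of neurotransmitters, glycine, creatine and taurine, Slc38 the sodium-coupled carriers of glutamine, alanine and other neutral amino acids, Slc36 proton-coupled carriers, and Slc43 facilitated carriers of large neutral amino acids. Many carriers of this kind are transcribed more when amino acids are scarce, through the transcription factor ATF4.

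The deposited table gives a mean per group, from which the whole reads of the 3 libraries of each group were worked back. In each group the library with the largest size factor was called A, the next B and the smallest C; these letters are no replicate numbers, and values are given in that order. Between 26955028 and 43209296 reads per library were recovered. Libraries A stood apart in both groups: the summed level of 6 fibroblast markers was 19607 normalised reads in ICRF-193-A against 2321 to 2966 in the other ICRF-193 libraries, and 17192 in DMSO-A against 1675 to 1708 in the other DMSO libraries. The summed level of 6 endoderm markers was 1551 in ICRF-193-A against 518 and 749.6, and 1641 in DMSO-A against 312 and 561. All 6 fibroblast and all 6 endoderm markers had reads in each library. The 7 ES cell markers were also detected in each library, at a summed level of 70281 to 82699 in ICRF-193 and 108410.0 to 119962 in DMSO. Of these 7, 1 was lower and 0 were higher at an adjusted p under 0.05 in the authors' deposited test, which called 1.26% of all genes lower and 5.97% higher. Of the transporter genes with a base mean of at least 10 and resolved reads, 46 in all, 6 were higher in library A than in B and C by over 0.5 on the log2 scale in both groups, and 10 were lower. Of 5 neural markers 1 was higher and 1 lower in the deposited test, and their summed level was 10381 to 13956 in ICRF-193 and 7687 to 10357 in DMSO. That of 4 trophectoderm markers, of which 0 were called, was 2024 to 2389 in ICRF-193 and 1164 to 1815 in DMSO. Each of these markers again had reads in each library. Log2 fold changes are for this reason also computed within libraries A alone and within libraries B and C, and the part of the other cell types in them was not tested. Beside the authors' deposited test, made with DESeq, limma-voom was run on the recovered reads, once with a term for the treatment alone and once with a further term that sets the A libraries against the rest, here the split term. A gene is said to rise, fall or pass at an adjusted p under 0.05 in the deposited test unless another is named.

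In ICRF-193-treated cells 6 transporter genes fell and 8 rose in the authors' deposited table. Those that fell were Slc1a4 and Slc1a5, exchangers of small neutral amino acids, Slc6a9, a glycine carrier, Slc7a3, a cationic amino acid carrier, and the light chains Slc7a5 and Slc7a11. They were at 0.323 (Slc6a9) to 0.557 (Slc1a5) of their DMSO level. The genes that rose were Slc1a1 and Slc1a6, which carry glutamate, Slc6a4 and Slc6a13, which carry serotonin and GABA, Slc7a4, Slc7a10, Slc38a3 and Slc38a8. Slc38a8 rose most, 6.67-fold, and Slc38a3 least, 1.86-fold. The same test called 5.97% of all 18759 genes with reads higher and 1.26% lower, beside which stand 8 and 6 of the 60 transporter genes with reads. In libraries of bulk RNA, fewer cells of a type and less RNA per cell cannot be told apart. By family, 2 of 5 Slc1 genes with a base mean of at least 10 fell and 2 rose, 1 of 13 Slc6 genes fell and 2 rose, 3 of 13 Slc7 genes fell and 2 rose, and 2 of 10 Slc38 genes rose. In Slc3, Slc36 and Slc43 none of the 1, 2 and 3 genes at that level passed in the deposited DESeq test; at an unadjusted p under 0.05 these were 0.0181 for Slc3a2, 0.046 for Slc43a2 and 0.00732 for Slc43a3, and limma-voom called Slc43a3 higher. The median log2 fold change was -0.85 in Slc1, 0.45 in Slc6, -0.07 in Slc7, 0.21 in Slc36, 0.15 in Slc38 and 0.47 in Slc43, and -0.60 for the single Slc3 gene. Over all 47 genes it was 0.14, beside -0.05 over the 14939 genes of the table with a base mean of at least 10.

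**Figure D1:**
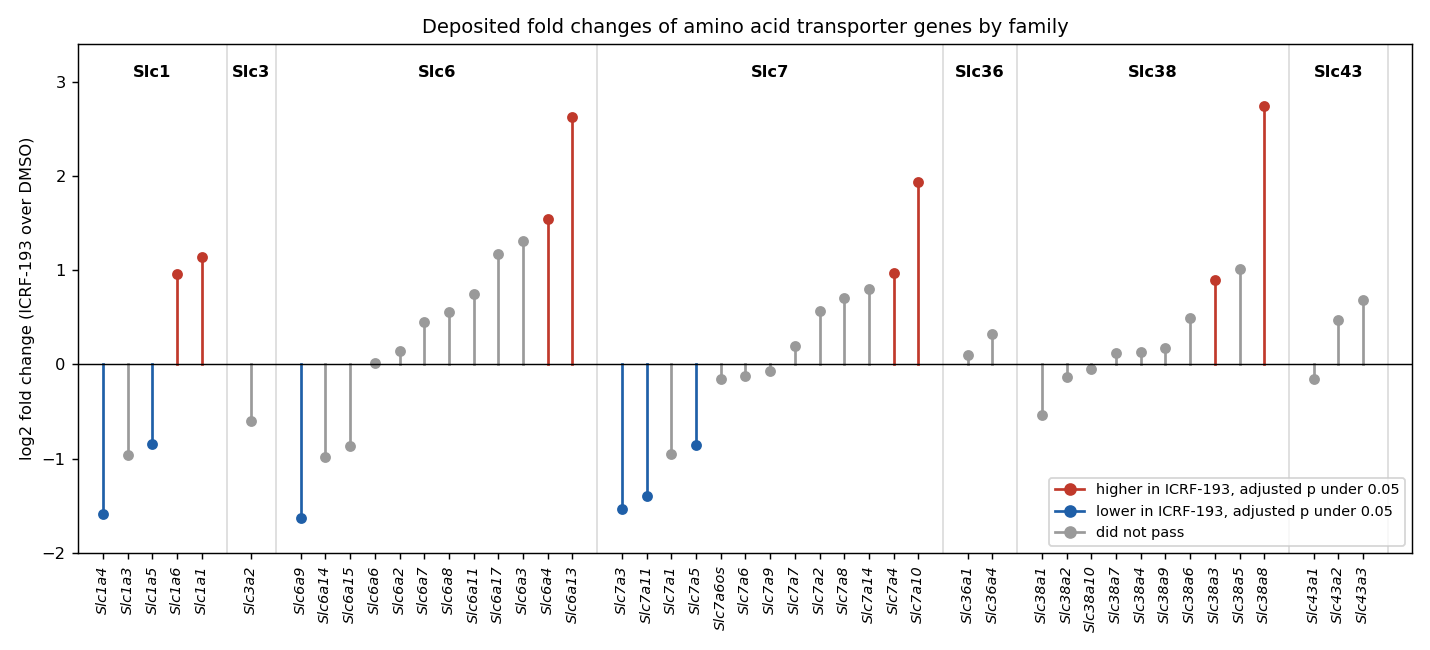
Deposited log2 fold change of ICRF-193 over DMSO (y axis) of 46 transporter genes with a base mean of at least 10, grouped by family; each stem is a gene, red and blue mark genes that passed the authors' test as higher or lower. Slc1, Slc6 and Slc7 hold genes that fell, down to -1.63 (Slc6a9), and genes that rose, while both called genes of Slc38 are above 0.

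The calls were spread unevenly over the levels of expression. Of the 19 transporter genes with a base mean of at least 1000, 4 fell and 0 rose in the deposited test; over all 6871 genes of that level 1.85% fell and 3.39% rose. The median log2 fold change was -0.16 in these transporter genes and -0.14 in all genes at that level. In limma-voom with the split term, Slc6a8, Slc7a7, Slc38a4 and Slc43a2 of these abundant genes were called higher, with log2 fold changes of 0.56, 0.20, 0.14 and 0.47. The same fit called Slc1a3, Slc1a4, Slc1a5, Slc3a2, Slc7a1, Slc7a3, Slc7a5, Slc7a6os and Slc38a1 lower. Over all genes it tested, that fit called 27.1% higher and 32.6% lower. Of the 15 with a base mean of 10 to 100, 5 rose and 1, Slc7a11, fell, with a median of 0.96. All 3071 genes of that level had 12.2% higher, 0.521% lower and a median of 0.42. Between 100 and 1000 lay 13 transporter genes, of which 3 rose and 1 fell, with a median of 0.49 against 0.00 in 4997 genes. Each of the 8 genes that rose had a base mean of at most 491 (Slc38a3).

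**Figure D2:**
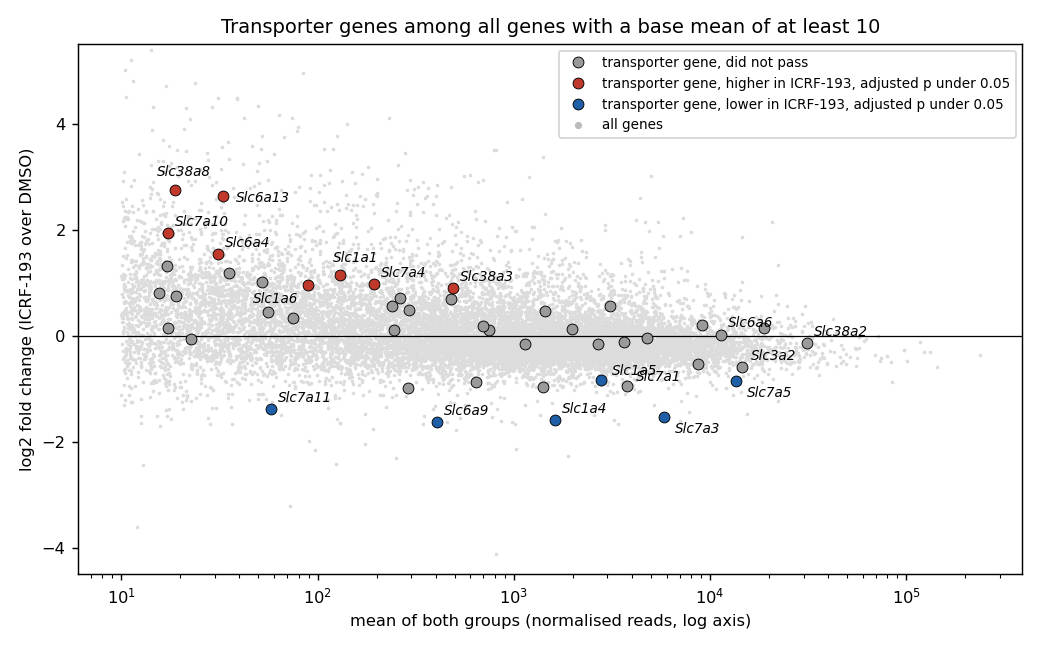
Log2 fold change of ICRF-193 over DMSO (y axis) against the mean of both groups in normalised reads (x axis, log scale) for the 47 transporter genes (large points) over all genes with a base mean of at least 10 and a finite fold (small grey points). The genes that rose lie left of a base mean of 500, while 4 of the 6 that fell lie right of 1000.

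The neutral amino acid exchangers of the Slc1 family both fell. Slc1a4 encodes ASCT1, which exchanges alanine, serine and cysteine; it was at 736, 899 and 778 normalised reads in libraries A, B and C of ICRF-193, against 2329, 2629 and 2318 in those of DMSO. All ICRF-193 libraries lay below all DMSO libraries, and the A libraries were close to the others. Slc1a4 averaged 804 ± 84.7 normalised reads in ICRF-193 and 2425 ± 176 in DMSO (mean ± SD, n = 3 each), a log2 fold change of -1.59 in the authors' deposited table, with an adjusted p of 2.59e-08 there, 0.00184 in limma-voom and 1.67e-07 with the split term; it passed in limma-voom whichever single library was left out. Slc1a5 encodes ASCT2, which also carries glutamine; it was at 1593, 2194 and 2154 normalised reads in the ICRF-193 libraries, against 3183, 3689 and 3801 in the DMSO libraries. Here too the groups did not overlap, and A was the lowest library of each group. Slc1a5 averaged 1980.2 ± 336 normalised reads in ICRF-193 and 3558 ± 329 in DMSO (mean ± SD, n = 3 each), a log2 fold change of -0.85 in the authors' deposited table, with an adjusted p of 0.012 there, 0.0165 in limma-voom and 1.41e-06 with the split term. The glycine transporter GlyT1 is encoded by Slc6a9, which was at 159.6, 234 and 199 normalised reads in the ICRF-193 libraries, against 515, 686 and 635 in the DMSO libraries. The groups were far apart, at 198 ± 37.4 normalised reads in ICRF-193 and 612 ± 88.1 in DMSO (mean ± SD, n = 3 each). Slc6a9 fell by a log2 fold change of -1.63 in the authors' deposited table, with an adjusted p of 1.27e-07 there, 0.00534 in limma-voom and 7.5e-07 with the split term, and also passed in limma-voom whichever single library was left out. On the opposite strand Ccdc24 shares 1429 bases of exon with Slc6a9 in GENCODE M21 (GRCm38) and had a log2 fold change of 0.27 in the authors' deposited table (adjusted p = 0.848); whether the counting used strand is not given in the sources used here.

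**Figure D3:**
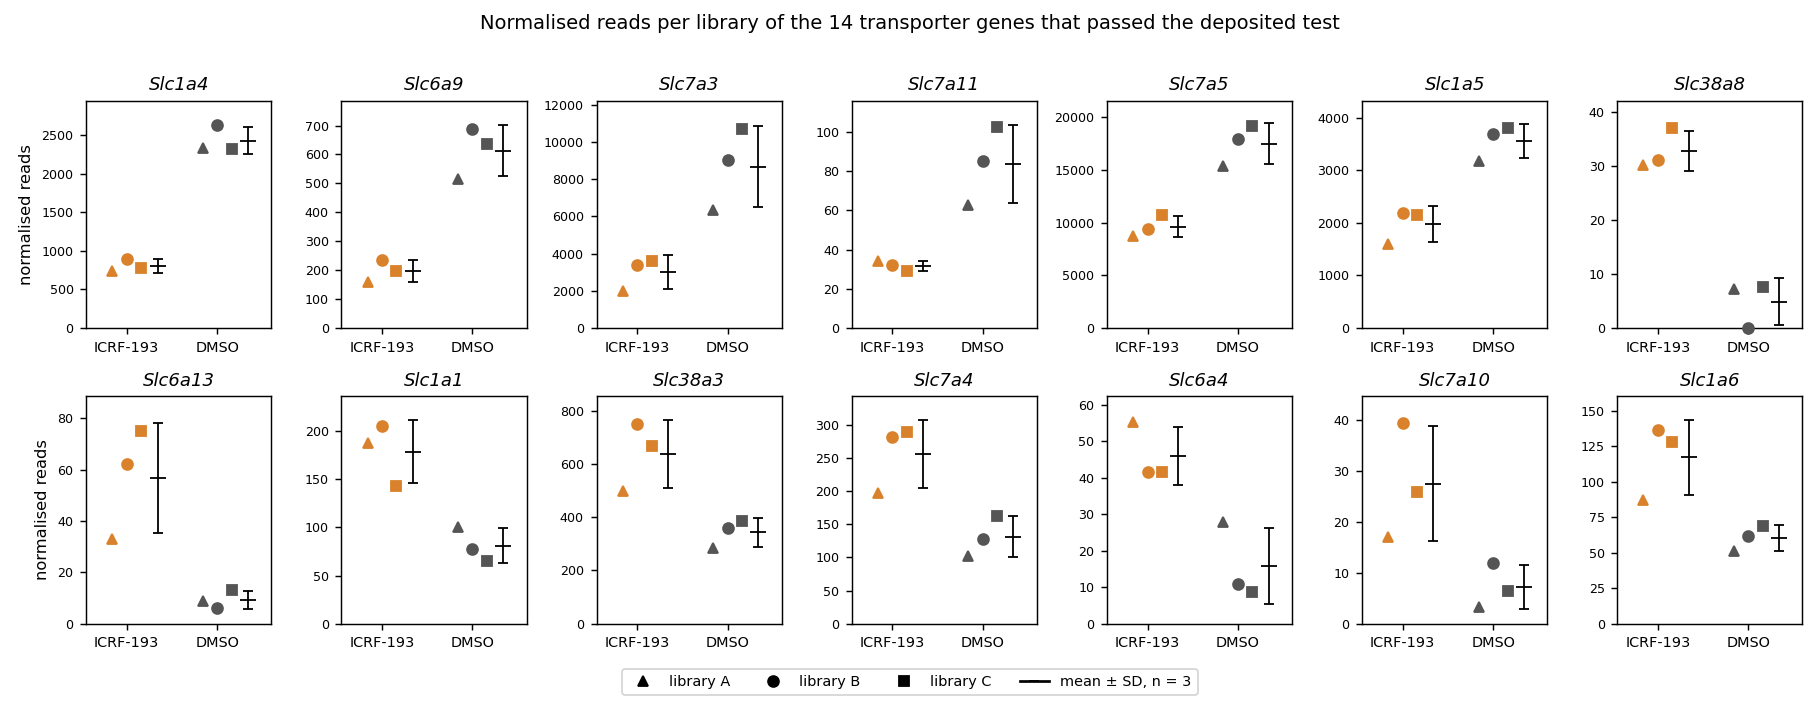
Normalised reads (y axes, each from 0) in the 3 ICRF-193 (orange) and 3 DMSO (grey) libraries for the 14 transporter genes that passed the deposited test, with mean ± SD beside the points; triangles are libraries A, circles B and squares C. In each panel all libraries of one group lie above all libraries of the other.

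The heavy chain Slc3a2 (4F2hc, also known as CD98) brings the light chains to the membrane, and 2 of its light chains fell, Slc7a5 and Slc7a11. Slc3a2 was at 9537, 12047 and 13249 normalised reads in the ICRF-193 libraries, against 13315, 18884 and 20444 in the DMSO libraries. Every ICRF-193 library was lower than every DMSO library, with the A library lowest in each group. Slc3a2 averaged 11611 ± 1894 normalised reads in ICRF-193 and 17548 ± 3748 in DMSO (mean ± SD, n = 3 each). Its log2 fold change was -0.60 in the authors' deposited table, with an adjusted p of 0.157 there, 0.0992 in limma-voom and 1.02e-05 with the split term. Without DMSO-A limma-voom gave Slc3a2 an adjusted p of 0.0215. Without any other single library that adjusted p was 0.151 to 0.271, so that Slc3a2 did not pass. Slc7a5 encodes LAT1, the light chain for large neutral amino acids such as leucine; it was at 8737, 9389 and 10768 normalised reads in the ICRF-193 libraries, against 15373, 17905 and 19168 in the DMSO libraries. The groups did not overlap, and Slc7a5 averaged 9631 ± 1037 normalised reads in ICRF-193 and 17482 ± 1933 in DMSO (mean ± SD, n = 3 each). The deposited means of Slc7a5 did not fix its reads per library, which were chosen with a prior on how libraries differ. Its SD, the lack of overlap and its limma-voom values rest in part on that choice. Slc7a5 fell by a log2 fold change of -0.86 in the authors' deposited table, with an adjusted p of 0.00941 there, 0.00873 in limma-voom and 1.03e-06 with the split term. Slc7a11 encodes xCT, which takes up cystine in exchange for glutamate, and was scarce, at 34.1, 32.1 and 29.2 normalised reads in the ICRF-193 libraries, against 62.9, 85.3 and 103 in the DMSO libraries. The ICRF-193 libraries were close together, all under the DMSO values. Slc7a11 averaged 31.8 ± 2.49 normalised reads in ICRF-193 and 83.6 ± 19.9 in DMSO (mean ± SD, n = 3 each) and fell by a log2 fold change of -1.39 in the authors' deposited table, with an adjusted p of 0.00514 there, 0.0204 in limma-voom and 0.000465 with the split term; the change was -0.88 within libraries A and -1.62 within B and C.

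Of the other 4 light chains of Slc3a2, Slc7a10 rose and the other 3 did not pass. Slc7a7 (y+LAT1) and Slc7a6 (y+LAT2) exchange cationic for neutral amino acids and had log2 fold changes of 0.19 and -0.12 in the authors' deposited table (adjusted p = 0.845 and 0.935). Slc7a8 encodes LAT2, a second carrier of large neutral amino acids; it was at 281, 336 and 366 normalised reads in the ICRF-193 libraries, against 139, 209 and 255 in the DMSO libraries, without overlap. Slc7a8 had a log2 fold change of 0.70 in the authors' deposited table, with an adjusted p of 0.0741 there, 0.0869 in limma-voom and 0.000572 with the split term. Slc7a10 encodes Asc-1, a light chain for small neutral amino acids, and was at 17.1, 39.4 and 25.8 normalised reads in the ICRF-193 libraries, against 3.18, 11.9 and 6.48 in the DMSO libraries. The groups did not overlap. Slc7a10 averaged 27.4 ± 11.3 normalised reads in ICRF-193 and 7.19 ± 4.40 in DMSO (mean ± SD, n = 3 each) and rose by a log2 fold change of 1.93 in the authors' deposited table, with an adjusted p of 0.0299 there, 0.0529 in limma-voom and 0.00113 with the split term. Lrp3 overlaps it by 377 exonic bases on the opposite strand and had a log2 fold change of 0.09 in the authors' deposited table (adjusted p = 0.965).

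Levels of different genes were set side by side per kb of exon, here with the joined exons of all isoforms of each gene in GENCODE M21. These lengths may differ from those of the transcripts present and of the annotation used for counting. Ranks and shares between genes are therefore approximate, here and below. Slc3a2 was at 3290.2 ± 537 normalised reads per kb in ICRF-193 and 4972 ± 1062 in DMSO (mean ± SD, n = 3 each). Slc7a5 was at 2597 ± 279.6 normalised reads per kb in ICRF-193 and 4715 ± 521 in DMSO (mean ± SD, n = 3 each), and Slc7a7 at 2917 ± 653 normalised reads per kb in ICRF-193 and 2554 ± 644 in DMSO (mean ± SD, n = 3 each). In DMSO Slc7a5 was above Slc7a7 in each library, whereas in ICRF-193 it was lower in libraries B and C and higher in library A. Of the summed level per kb of the 6 light chains of Slc3a2, Slc7a5 made up 41.1% ± 2.79 in ICRF-193 and 58.1% ± 2.21 in DMSO (mean ± SD, n = 3 each). Slc7a7 made up 45.5% ± 4.27 in ICRF-193 and 31.0% ± 3.47 in DMSO (mean ± SD, n = 3 each). For both shares the libraries of the groups did not overlap, and in library A the share of Slc7a5 was 44.0% in ICRF-193 against 60.1% in DMSO. The level per kb of Slc3a2 over that of its summed light chains was 0.517 ± 0.0110 in ICRF-193 and 0.606 ± 0.0525 in DMSO (mean ± SD, n = 3 each).

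**Figure D4:**
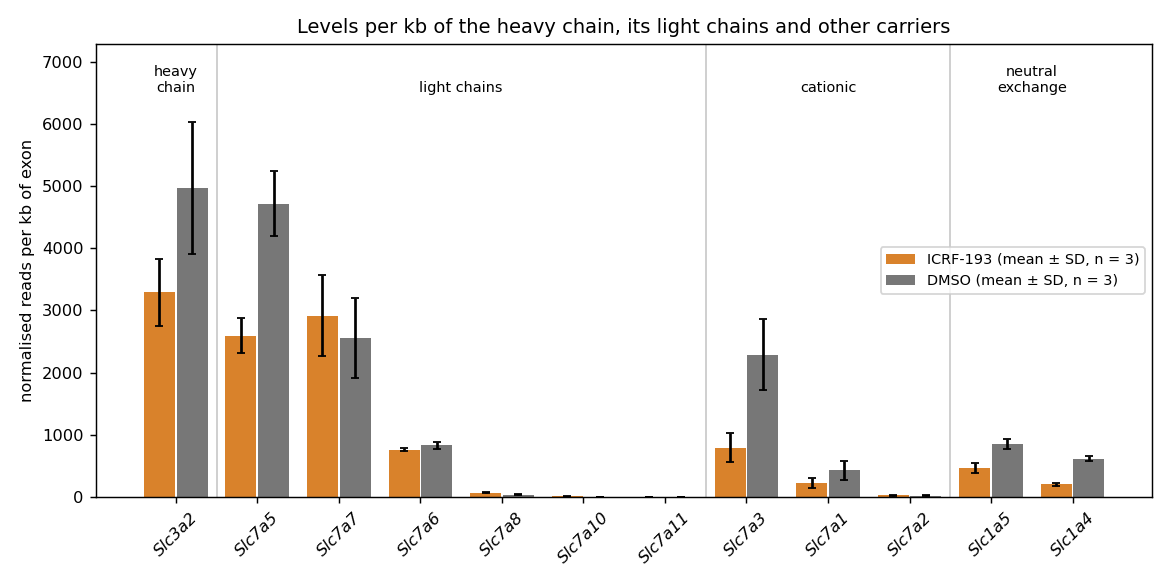
Normalised reads per kb of exon (y axis, mean ± SD, n = 3) in ICRF-193 (orange) and DMSO (grey) for the heavy chain, its light chains, the cationic carriers and the neutral exchangers. Slc7a5 stood at 2597 in ICRF-193 and 4715 in DMSO, and Slc7a3 at 793 and 2291.

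The factor ATF4 is known to bind with C/EBP factors to a composite motif, which was looked for in the promoters. The letters searched were TGATGNAA on both strands (TTNCATCA on the other), in windows of 250 bases before to 50 after RefSeq start sites (GRCm38.p6, which is not the build mm9 of the deposited table). Such a window was held for 44 of the 62 members; of the 6 genes that fell they were Slc1a4, Slc6a9 and Slc7a11, while Slc1a5, Slc7a3 and Slc7a5 had none. The motif stood in 1304 of all 32851 windows (3.97%) and in 4 of the 65 member windows. These belonged to Slc7a11 and Slc1a4, which fell, and to Slc7a7, which did not pass and has 2 overlapping windows. None of the 8 windows of 6 genes that rose held it. Shown are the windows of the 2 genes that fell and, for contrast, the first of Slc7a7, each 5′ to 3′ in the direction of the gene, on the minus strand, with the motif in capitals.
Slc7a11 (chr3:50443564-50443863): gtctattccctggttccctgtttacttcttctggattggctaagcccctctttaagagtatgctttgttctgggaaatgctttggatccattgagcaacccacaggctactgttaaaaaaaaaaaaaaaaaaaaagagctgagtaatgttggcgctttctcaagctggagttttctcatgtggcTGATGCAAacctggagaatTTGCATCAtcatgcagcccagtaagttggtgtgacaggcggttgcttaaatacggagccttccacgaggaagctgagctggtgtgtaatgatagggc
Slc1a4 (chr11:20332664-20332963): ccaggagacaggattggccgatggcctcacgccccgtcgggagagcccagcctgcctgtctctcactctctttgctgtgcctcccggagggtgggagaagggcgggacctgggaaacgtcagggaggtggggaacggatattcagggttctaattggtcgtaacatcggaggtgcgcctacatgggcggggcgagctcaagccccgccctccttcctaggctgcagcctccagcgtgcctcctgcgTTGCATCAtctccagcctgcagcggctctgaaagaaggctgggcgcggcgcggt
Slc7a7 (chr14:54417895-54418194): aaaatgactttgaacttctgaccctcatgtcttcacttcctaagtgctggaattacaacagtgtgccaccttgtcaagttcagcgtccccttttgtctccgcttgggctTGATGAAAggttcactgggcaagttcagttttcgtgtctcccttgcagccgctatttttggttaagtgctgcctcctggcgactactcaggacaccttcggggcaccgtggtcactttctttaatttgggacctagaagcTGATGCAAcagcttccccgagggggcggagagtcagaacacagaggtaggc
In Slc7a11 the matches face each other, at bases -66 to -59 and -47 to -40, counted from the start site as base 1 with no base 0, while in Slc1a4 the match spans the start site, from -4 to 4. In Slc7a7 they lie at -141 to -134 and -1 to 7. A match is a run of letters and was not tested as a binding site.

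Of the cationic amino acid carriers, which take up arginine and lysine, Slc7a3 (CAT3) fell. It was at 1971, 3410.2 and 3620.2 normalised reads in the ICRF-193 libraries, against 6340.0, 9004 and 10667 in the DMSO libraries. The highest ICRF-193 library was below the lowest DMSO library, and library A was the lowest of each group. Slc7a3 averaged 3001 ± 897 normalised reads in ICRF-193 and 8670.3 ± 2183 in DMSO (mean ± SD, n = 3 each) and fell by a log2 fold change of -1.53 in the authors' deposited table, with an adjusted p of 0.000547 there, 0.0184 in limma-voom and 1.45e-07 with the split term. Slc7a1 (CAT1) was at 3569, 2145 and 1969 normalised reads in the ICRF-193 libraries, against 7017, 4165 and 3684 in the DMSO libraries. Library A was the highest of each group here, so that the ranges came close but did not overlap. Slc7a1 averaged 2561 ± 877 normalised reads in ICRF-193 and 4955 ± 1802 in DMSO (mean ± SD, n = 3 each), a log2 fold change of -0.95 in the authors' deposited table, with an adjusted p of 0.214 there, 0.0938 in limma-voom and 9.33e-07 with the split term. The change of Slc7a1 was -0.98 within libraries A and -0.93 within B and C. Slc7a2 (CAT2) was at 374, 249 and 236 normalised reads in the ICRF-193 libraries, against 295, 153 and 134 in the DMSO libraries. Its groups overlapped through DMSO-A, and Slc7a2 had a log2 fold change of 0.56 in the authors' deposited table, with an adjusted p of 0.637 there, 0.28 in limma-voom and 0.00251 with the split term. Per kb, the summed level of the 3 carriers was 1046 ± 153 in ICRF-193 and 2742 ± 419 in DMSO (mean ± SD, n = 3 each). Slc7a3 made up 74.5% ± 12.8 in ICRF-193 and 82.7% ± 9.09 in DMSO (mean ± SD, n = 3 each), with overlapping libraries.

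Of the other Slc7 symbols 1 rose, Slc7a4, and the other 3 did not pass. Slc7a4 was at 197, 281 and 289.5 normalised reads in the ICRF-193 libraries, against 102, 128 and 163 in the DMSO libraries. The groups did not overlap, and Slc7a4 rose by a log2 fold change of 0.97 in the authors' deposited table, with an adjusted p of 0.00983 there, 0.0418 in limma-voom and 8.43e-05 with the split term. P2rx6, which encodes an ATP-gated channel subunit, overlaps it by 554 exonic bases on the opposite strand and rose by a log2 fold change of 3.24 in the authors' deposited table (adjusted p = 0.000501); whether reads of the shared bases were counted by strand is not given in the sources used here. Slc7a14 was at 13.0, 25.9 and 20.2 normalised reads in the ICRF-193 libraries, against 7.16, 13.9 and 13.0 in the DMSO libraries; the groups overlapped, with a log2 fold change of 0.80 in the authors' deposited table, with an adjusted p of 0.535 there, 0.219 in limma-voom and 0.0435 with the split term. Slc7a9, the light chain of the heavy chain Slc3a1, had a log2 fold change of -0.07 in the authors' deposited table (adjusted p = 1), with -0.92 within libraries A and 0.25 within B and C. Slc7a6os had a log2 fold change of -0.16 in the authors' deposited table (adjusted p = 0.96).

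Of the glutamate carriers of the Slc1 family 2 rose and none fell in the deposited test. Slc1a3 (EAAT1, also known as GLAST) had the most reads of these, at 726, 1065 and 1087 normalised reads in the ICRF-193 libraries, against 1313, 2003 and 2291 in the DMSO libraries. The groups did not overlap and library A was lowest in each. Slc1a3 averaged 959 ± 203 normalised reads in ICRF-193 and 1869 ± 502 in DMSO (mean ± SD, n = 3 each), a log2 fold change of -0.96 in the authors' deposited table, with an adjusted p of 0.0549 there, 0.0575 in limma-voom and 2.44e-06 with the split term. Slc1a1 (EAAT3) also carries cysteine and was at 188, 205 and 143 normalised reads in the ICRF-193 libraries, against 100.3, 77.4 and 64.8 in the DMSO libraries. All ICRF-193 libraries were higher than all DMSO libraries, and Slc1a1 rose by a log2 fold change of 1.14 in the authors' deposited table, with an adjusted p of 0.00485 there, 0.024 in limma-voom and 0.00037 with the split term. 4430402I18Rik overlaps Slc1a1 by 2631 exonic bases on the opposite strand and averaged 12.0 normalised reads in ICRF-193 and 5.61 in DMSO. Slc1a6 (EAAT4), best known from Purkinje cells of the cerebellum, was at 87.3, 137 and 128 normalised reads in the ICRF-193 libraries, against 50.9, 61.5 and 69.2 in the DMSO libraries. Again the groups did not overlap, and Slc1a6 rose by a log2 fold change of 0.96 in the authors' deposited table, with an adjusted p of 0.0396 there, 0.0478 in limma-voom and 0.000511 with the split term. Per kb, Slc1a3 made up 58.4% ± 2.90 in ICRF-193 and 84.3% ± 3.57 in DMSO (mean ± SD, n = 3 each) of the summed level of the 5 glutamate carriers, and Slc1a6 28.3% ± 1.40 in ICRF-193 and 11.1% ± 1.11 in DMSO (mean ± SD, n = 3 each). Slc1a3 was the highest of the 5 per kb in each library.

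In the Slc6 family the glycine carrier Slc6a9 fell, while the genes of other neurotransmitter carriers that passed rose and were scarce. Slc6a13 encodes a GABA carrier and was at 33.1, 62.2 and 75.2 normalised reads in the ICRF-193 libraries, against 8.76, 5.95 and 13.0 in the DMSO libraries. The groups were apart, with ICRF-193-A the lowest of its group. Slc6a13 averaged 56.8 ± 21.5 normalised reads in ICRF-193 and 9.23 ± 3.53 in DMSO (mean ± SD, n = 3 each) and rose by a log2 fold change of 2.62 in the authors' deposited table, with an adjusted p of 0.000722 there, 0.0165 in limma-voom and 0.000111 with the split term. Slc6a4, the serotonin transporter, was at 55.2, 41.5 and 41.5 normalised reads in the ICRF-193 libraries, against 27.9, 10.9 and 8.65 in the DMSO libraries, highest in library A of each group. Slc6a4 averaged 46.1 ± 7.92 normalised reads in ICRF-193 and 15.8 ± 10.5 in DMSO (mean ± SD, n = 3 each) and rose by a log2 fold change of 1.54 in the authors' deposited table, with an adjusted p of 0.0194 there, 0.0469 in limma-voom and 0.00109 with the split term; it was 0.99 within libraries A and 2.09 within B and C. Slc6a3, the dopamine transporter, was at 17.1, 30.1 and 25.8 normalised reads in the ICRF-193 libraries, against 8.76, 10.9 and 9.73 in the DMSO libraries, without overlap. Slc6a3 had a log2 fold change of 1.31 in the authors' deposited table, with an adjusted p of 0.161 there, 0.0438 in limma-voom and 0.00434 with the split term. Slc6a17, a vesicular carrier of neutral amino acids in neurons, was at 47.2, 52.9 and 47.1 normalised reads in the ICRF-193 libraries, against 20.7, 20.8 and 23.8 in the DMSO libraries. The groups lay apart; Slc6a17 had a log2 fold change of 1.17 in the authors' deposited table, with an adjusted p of 0.0634 there, 0.0145 in limma-voom and 0.00123 with the split term. The noradrenaline transporter Slc6a2 and the GABA carrier Slc6a11 did not pass, with log2 fold changes of 0.14 and 0.75 in the authors' deposited table.

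The osmolyte carriers Slc6a6 and Slc6a8 and the amino acid carriers Slc6a15 and Slc6a14 had more reads than Slc6a13, Slc6a4, Slc6a3 and Slc6a17. Slc6a6, the taurine transporter, was at 15279, 9671 and 9320.0 normalised reads in the ICRF-193 libraries, against 15574, 9045 and 9194 in the DMSO libraries. Library A was far above the others in each group, though the reads per library of Slc6a6 were chosen with a prior on how libraries differ. Slc6a6 had a log2 fold change of 0.02 in the authors' deposited table (adjusted p = 1), the nearest to 0 of all 47 genes. Slc6a8, the creatine transporter, was at 4300.2, 3244 and 3545 normalised reads in the ICRF-193 libraries, against 3068, 2202 and 2275 in the DMSO libraries. The groups did not overlap; Slc6a8 had a log2 fold change of 0.56 in the authors' deposited table, with an adjusted p of 0.206 there, 0.0764 in limma-voom and 1.54e-05 with the split term. Slc6a15 encodes B0AT2, a carrier of branched-chain amino acids and proline, at 315, 548 and 502 normalised reads in the ICRF-193 libraries, against 587, 894 and 1012 in the DMSO libraries. Lower in each ICRF-193 library than in any DMSO library, Slc6a15 had a log2 fold change of -0.87 in the authors' deposited table, with an adjusted p of 0.114 there, 0.0936 in limma-voom and 1.2e-05 with the split term. Slc6a14, a carrier of neutral and cationic amino acids, was at 122, 224 and 232 normalised reads in the ICRF-193 libraries, against 190.2, 459 and 497 in the DMSO libraries. Its groups overlapped through DMSO-A, with a log2 fold change of -0.99 in the authors' deposited table, with an adjusted p of 0.381 there, 0.228 in limma-voom and 5.12e-05 with the split term. Slc6a7, a proline carrier, had a log2 fold change of 0.45 in the authors' deposited table (adjusted p = 0.673).

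Of the Slc38 carriers 8 of 10 did not pass the deposited test. Slc38a2 encodes SNAT2, a carrier of alanine and glutamine that amino acid starvation induces in other cell types; it had the most reads of all members, 29732 normalised reads in ICRF-193 and 32736 in DMSO. The reads per library of Slc38a2 could not be resolved, so it has no SD; its log2 fold change was -0.14 in the authors' deposited table (adjusted p = 0.934). Slc38a1 (SNAT1) was at 8169.8, 6976 and 6162 normalised reads in the ICRF-193 libraries, against 11295, 9680.4 and 9952 in the DMSO libraries. The groups did not overlap, and Slc38a1 had a log2 fold change of -0.54 in the authors' deposited table, with an adjusted p of 0.19 there, 0.0362 in limma-voom and 1.64e-05 with the split term. Slc38a4 (SNAT4), which is imprinted and expressed from the paternal allele in mouse placenta, had a log2 fold change of 0.14 in the authors' deposited table (adjusted p = 0.933). Per kb, Slc38a4 at 4609 in ICRF-193 and 4196 in DMSO stood beside Slc38a2 at 3364 and 3704, an order that depends on the exon lengths used. The lysosomal members Slc38a7, a glutamine carrier, and Slc38a9, the arginine sensor of the mTORC1 kinase complex, had log2 fold changes of 0.12 and 0.17 in the authors' deposited table (adjusted p = 0.94 and 0.876), and Slc38a10 one of -0.04.

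The members of Slc38 that rose had few reads. Slc38a3 (SNAT3), a glutamine carrier of liver, kidney and brain, was at 498, 749.6 and 667 normalised reads in the ICRF-193 libraries, against 283, 359 and 387 in the DMSO libraries. The groups were apart and A was the lowest library in each. Slc38a3 averaged 638 ± 128 normalised reads in ICRF-193 and 343 ± 53.6 in DMSO (mean ± SD, n = 3 each) and rose by a log2 fold change of 0.89 in the authors' deposited table, with an adjusted p of 0.00891 there, 0.0334 in limma-voom and 1.42e-05 with the split term. Slc38a8, whose human gene is mutated in a disorder of the fovea, was at 30.1, 31.1 and 37.0 normalised reads in the ICRF-193 libraries, against 7.16, 0 and 7.56 in the DMSO libraries. It had 0 reads in DMSO-B and at most 9 in the other DMSO libraries, so that its fold is uncertain. Slc38a8 rose by a log2 fold change of 2.74 in the authors' deposited table, with an adjusted p of 0.000164 there, 0.0509 in limma-voom and 0.00251 with the split term. Slc38a5 (SNAT5), a glutamine carrier, was at 98.4, 52.9 and 58.4 normalised reads in the ICRF-193 libraries, against 56.5, 23.8 and 23.8 in the DMSO libraries. Library A was highest in each group and the ranges overlapped; Slc38a5 had a log2 fold change of 1.01 in the authors' deposited table, with an adjusted p of 0.349 there, 0.147 in limma-voom and 0.00143 with the split term. Slc38a6 had a log2 fold change of 0.49 in the authors' deposited table (adjusted p = 0.393).

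Of the facilitated carriers, Slc43a2 (LAT4) was at 1361, 1656 and 2003 normalised reads in the ICRF-193 libraries, against 955, 1236 and 1428 in the DMSO libraries, with overlap. Its log2 fold change was 0.47 in the authors' deposited table, with an adjusted p of 0.281 there, 0.162 in limma-voom and 0.000707 with the split term. Slc43a3, which carries purine bases and not amino acids, was at 601, 549.5 and 621 normalised reads in the ICRF-193 libraries, against 339.9, 371 and 394 in the DMSO libraries. All ICRF-193 libraries were higher, and Slc43a3 had a log2 fold change of 0.68 in the authors' deposited table, with an adjusted p of 0.0834 there, 0.0162 in limma-voom and 0.000109 with the split term. Slc43a1 (LAT3) had a log2 fold change of -0.16 in the authors' deposited table (adjusted p = 1). Slc36a1 (PAT1), a proton-coupled carrier of lysosomes and the gut, was at 828, 719.6 and 772 normalised reads in the ICRF-193 libraries, against 874, 649 and 647 in the DMSO libraries, with overlap. Slc36a1 had a log2 fold change of 0.10 in the authors' deposited table, with an adjusted p of 0.997 there, 0.692 in limma-voom and 0.338 with the split term, and Slc36a4 one of 0.33 in the authors' deposited table (adjusted p = 0.855).

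The changes were set beside the libraries that stand apart. Of the 46 resolved genes 41 had the same sign within libraries A and within B and C, as had all 14 that passed the deposited test. The share of all genes with the same sign is not given here. The 14 were called from these same libraries, so neither an equal sign nor a lack of overlap is a further test of them. Among these 14 the widest gaps were those of Slc6a4 and Slc38a8, at 0.99 and 2.07 within libraries A against 2.09 and 3.17 within B and C. For all 14 the libraries of the groups did not overlap. This was so for 17 higher and 11 lower of the 46 resolved genes, and over all genes of that level whose reads were resolved 18.5% were higher and 18.8% lower without overlap. Limma-voom on the recovered reads called 10 transporter genes higher and 7 lower, beside 9.76% and 5.94% of the 14974 genes it tested. It shared 12 of the 14 deposited calls and missed Slc7a10 and Slc38a8; a further call was Slc36a2, whose base mean was under 10. With the split term it called 21 higher and 13 lower, beside 27.1% and 32.6% of all genes, and shared all 14 deposited calls. Leaving ICRF-193-B out of the fit with treatment alone gave 0 higher and 2 lower, and leaving ICRF-193-C out gave 0 and 3. At an unadjusted p under 0.05 there were 12 higher and 9 lower without ICRF-193-B, and 11 higher and 10 lower without ICRF-193-C. Without DMSO-B it called 1 higher and 2 lower, and without DMSO-C 2 higher and 3 lower. The share of all genes called in these left-out fits is not given here. Scaling by total reads moved the median log2 fold change of all genes in limma-voom to 0.08, from -0.04 with size factors, and gave 12 transporter genes higher and 6 lower.

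**Figure D5:**
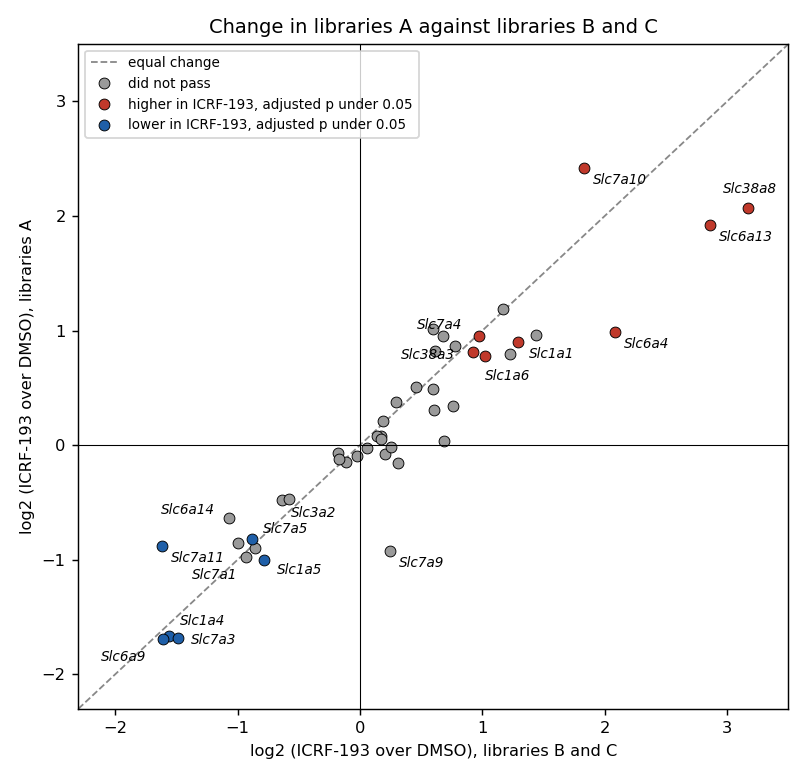
Log2 ratio of ICRF-193 over DMSO in libraries A (y axis) against that in libraries B and C (x axis) for the 46 transporter genes with a base mean of at least 10 and resolved reads, coloured by the deposited test; the dashed line marks equal change. All 14 coloured points lie in the quadrants of equal sign, and Slc7a9 lies at -0.92 on the y axis and 0.25 on the x axis.

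Lists of other genes of amino acid use and sensing were counted in the same way, beside 5.97% higher and 1.26% lower of all genes with reads, and 3.39% and 1.85% of those with a base mean of at least 1000. These shares are of the deposited test, whereas limma-voom called 9.76% of all genes it tested higher and 5.94% lower. For counts before adjustment no share of all genes is given here. Of 23 genes of the kinase GCN2 and the integrated stress response, 7 fell and 0 rose in the deposited test, with a median log2 fold change of -0.39; limma-voom called 10 lower and 0 higher, and did not call Ddit3 (adjusted p = 0.0569). Atf4, the transcription factor of this response, was at 3249, 4625 and 4685 normalised reads in the ICRF-193 libraries, against 8097, 13519 and 12604 in the DMSO libraries. Atf4 did not overlap between groups and fell by a log2 fold change of -1.45 in the authors' deposited table (adjusted p = 0.000667); its part in the transporter changes was not tested. The others that fell were the pseudokinase Trib3, the transcriptional regulators Nupr1, Atf5 and Ddit3, the phosphatase subunit Ppp1r15b and the initiation factor Eif2s2, with log2 fold changes of -1.30, -1.38, -0.84, -0.84, -0.74 and -0.76 in the authors' deposited table. Of 30 genes through which mTORC1 senses amino acids at the lysosome 2 fell, the small GTPase Rragd (-0.89) and Mios (-0.77), and 0 rose, with a median of -0.20; limma-voom called 3 lower and 1 higher. The higher one was Sesn2, a leucine sensor, with a log2 fold change of 0.52 in the authors' deposited table (adjusted p = 0.241) and an adjusted p of 0.0284 in limma-voom. Of 19 genes listed for the use of glutamine, cystine, branched-chain amino acids or threonine, 2 fell and 0 rose. Those that fell were the transaminases Gpt2 (-1.51) and Bcat1 (-0.78). In this list limma-voom called 4 lower and 1 higher. None of 15 mitochondrial carriers, of 13 other amino acid transporters and of 12 genes of transporter turnover passed in the deposited DESeq test, where 1 and 3, 0 and 0 and 1 and 1 were higher and lower before adjustment (p under 0.05); by limma-voom 0 were higher and 3 lower, 0 and 0, and 1 and 1.

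The 15 members with a base mean under 10 are given by name. Slc6a18 and Slc7a13 had no reads. Slc1a2, Slc1a7, Slc3a1, Slc6a5, Slc6a12, Slc6a19, Slc6a20a, Slc6a20b, Slc7a12, Slc7a15, Slc36a2, Slc36a3 and Slc38a11 had at most 12.3 normalised reads in ICRF-193 (Slc36a2) and 7.21 in DMSO (Slc3a1), and none passed the deposited DESeq test (1 at an unadjusted p under 0.05). Slc6a20a and Slc6a20b are close copies, so their few reads may be split between them. Slc36a2, a proton-coupled carrier, was at 13.0, 10.4 and 13.5 normalised reads in the ICRF-193 libraries, against 3.18, 2.98 and 3.24 in the DMSO libraries, and limma-voom called it higher (adjusted p = 0.0116).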

How the data were processed

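Messenger RNA of 6 libraries was sequenced, 3 of ICRF-193-treated and 3 of DMSO-treated cells. Per the submitters' processing notes, reads were aligned with TopHat to mm9, counted with HTSeq and tested with DESeq; versions, annotation and the use of strand are not given in the sources used here. The authors deposited a single table with, per gene, a base mean and 2 group means of normalised signal (reads divided by size factors), a fold change as a linear ratio, a log2 fold change, and p-values, with the adjusted p-value equal to Benjamini-Hochberg adjustment over 18759 genes. The deposited group means carry 15 digits, so the whole reads of each library were worked back by a lattice search: 18470 genes had a single solution, 236 were chosen at a posterior of at least 0.99 (t prior, 3 degrees of freedom) and 53 stayed unresolved. The prior was on the log ratios between libraries. Of the members with a base mean of at least 10, Slc7a5, Slc6a6 and Slc38a4 were chosen in this way. Which library is which replicate is not known, so A, B and C are names only.

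Recovered reads were tested with limma 3.58.1 (voom, R 4.3.3), keeping genes that reached 10 reads in 3 libraries or more. They were scaled by the size factors found in the recovery, and p-values were adjusted over 14974 genes. The recovered reads came to 26955028 to 43209296 per library, without those of the 53 unresolved genes. Lengths and exonic overlaps came from GENCODE M21, and promoters and their sequences from RefSeq (GRCm38.p6); no mm9 coordinates are given. Library values are given for members called in the deposited test, members called by limma-voom with the split term at a log2 fold change of at least 0.5 in size, and the member with most reads in each family. The values of 1 member are not reported here, though it stays in the counts and medians. Members and gene lists were chosen with earlier results of these data known. Also varied were the lower limit of the base mean, the test, the scaling, the split term and leaving out libraries.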

Additional observations from a re-analysis of the deposited data

How the results depend on the processing

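Limits are those of 3 libraries per group, of which A stands apart in each, and of reads worked back from deposited means. The deposited test called 8 members higher and 6 lower. With a base mean of at least 100 it called 3 higher, and limma-voom with the split term called 21 higher and 13 lower. For limma-voom without that term, which called 10 higher and 7 lower, the split term gave 21 and 13, with scaling by total reads 27 and 12, with upper-quartile scaling 23 and 12, and 19 and 12 were called once both libraries A were dropped. Leaving out each library in turn gave 0 to 11 higher and 2 to 10 lower: 0 and 2 without ICRF-193-B, 0 and 3 without ICRF-193-C, 1 and 2 without DMSO-B, 2 and 3 without DMSO-C, 8 and 7 without ICRF-193-A, and 11 and 10 without DMSO-A. The left-out fits have 3 residual degrees of freedom. Over all genes limma-voom called 9.76% higher and 5.94% lower, and 27.1% and 32.6% with the split term. For the other fits that share is not given here, so their counts cannot be set against all genes. The median log2 fold change of Slc1 was 0.42 and that of Slc3 0.085 with a base mean of at least 1, that of Slc6 was -0.42 with a base mean of at least 100, 0.054 within libraries A and 0.60 within B and C, and that of Slc38 was 0.31 within B and C. Slc6a6, at 0.03 in limma-voom and 0.29 without DMSO-A, was at -0.20 without ICRF-193-A, -0.11 without DMSO-B and -0.10 without DMSO-C. The cause was not tested. With the split term 13 more of the named genes passed and none was lost. Passing that fit was itself a rule for naming a gene, so this count is no test of how firm the changes are. No paired analysis was possible because the deposited columns are group means and carry no replicate numbers.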
